A study of Mus musculus with 8 samples.

Results

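Of the 34834 gene names on the array, 10 structural non-coding RNAs are described here: Rmrp, Rn18s, Rs5-8s1, Rn4.5s, Rnu12, Rnu2-10, Rnu3b1, Snora47, Snora74a and Terc. They were found by gene name, with 1 probe and 1 spot each, and had been picked for a higher signal after 2 h of SEMA3E, so that difference is given as a description with no test. The RNA came from B16 cells, a mouse melanoma line grown in medium with 5% serum, on 8 arrays in 4 groups of 2 biological replicates. The groups were cytochalasin D for 8 h, an untreated control labelled 0 h, SEMA3E for 2 h and SEMA3E for 8 h. SEMA3E is a secreted semaphorin, a guidance protein, and cytochalasin D blocks the growth of actin filaments. The labels give no vehicle for the control and no control at 8 h, so treatment and time in culture cannot be told apart in a comparison with control.

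These RNAs act as RNA rather than as templates for protein. Ribosomes are built in the nucleolus, where a long precursor is cut and chemically modified with the help of small nucleolar RNAs and of RNase MRP, an RNA-protein enzyme whose RNA is Rmrp. Small nuclear RNAs of the U series form the core of the spliceosome, which removes introns, and Terc carries the template from which telomerase copies telomere repeats. RNA polymerase I transcribes the precursor of Rn18s and Rs5-8s1, RNA polymerase III transcribes Rmrp and Rn4.5s, and RNA polymerase II the others or their host genes. Most of these RNAs end without a poly(A) tail, as replication-dependent histone mRNAs do. The labels do not say how the cDNA was primed, and what part priming had in the values was not tested.

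The probes below are what each signal was read from. They are the array's own 60-base sequences, written 5′ to 3′ in the sense of the RNA with T for U, and they show which stretch of each RNA was seen. Capitals mark the Sm protein binding site ATTTTTG in the U12 and U2 RNAs, TGATGA and CTGA, the letters of box C and box D type motifs, in the U3 RNA, the telomere template CTAACCCT in Terc, and the run TTTTTT at the end of the Rn4.5s probe. Rmrp and Snora47 carry no capitals.
Rmrp: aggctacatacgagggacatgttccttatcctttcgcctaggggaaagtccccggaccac
Rnu3b1: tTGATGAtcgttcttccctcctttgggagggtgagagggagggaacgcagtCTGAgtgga
Snora47: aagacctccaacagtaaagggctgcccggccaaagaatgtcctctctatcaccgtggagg
Rnu2-10: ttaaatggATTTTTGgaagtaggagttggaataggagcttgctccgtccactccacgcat
Rnu12: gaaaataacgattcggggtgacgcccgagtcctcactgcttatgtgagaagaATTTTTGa
Rn4.5s: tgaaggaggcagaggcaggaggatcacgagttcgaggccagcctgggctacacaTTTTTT
Terc: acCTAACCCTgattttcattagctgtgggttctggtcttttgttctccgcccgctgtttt

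Counted on both strands, ATTTTTG stood in 1.70% of the array's 55698 probes, TGATGA in 4.64%, CTGA in 48.4%, CTAACCCT in 0.11% and TTTTTT in 5.85%, so a match alone is a description of the letters. RefSeq places Rmrp on chromosome 4, Rnu3b1 and Rnu2-10 on chromosome 11, Snora47 on 13, Rnu12 on 15, Rn4.5s on 6 and Terc on 3 (table of assembly GRCm38.p6). The headers name build mm9 for the design, so no coordinates are given. The probe of Rn4.5s shared a stretch of 16 bases with 32 of 32851 RefSeq promoters (0.0974%), and the other 9 members with at most 3. Among the array's own probes, that of Rn4.5s shared 16 bases on either strand with 1 other, for Cxcl11. The Rnu12 probe also shared 16 bases with 1 other, and the remaining members with none. Rn4.5s is related in sequence to the B1 repeat, U2 and U3 RNAs come from families of near-identical copies (RefSeq lists 4 Rnu3b genes), and the ribosomal RNAs come from repeated units. A signal of these members can therefore sum several copies.

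Levels are log2 of the processed signal from which the 75th percentile of the same array was subtracted, taken over the 18687 probes that were bright enough to be marked well above background on each of the 8 arrays. Zero is thus that percentile and a difference of 1 is 2-fold. Differences were fitted with limma over 18073 genes and called at a Benjamini-Hochberg adjusted p under 0.05. With 2 arrays a group, differences had a standard error of 0.342 at the median, which limits every value below. All 10 members passed the filter on dim probes, a filter that a member could pass through its brightest group alone. The members Rmrp, Rn4.5s, Rnu12, Rnu2-10, Rnu3b1 and Snora74a were well above background on all 8 arrays.

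The arrays differed in brightness before scaling. Over all spots, the 75th percentile stood at 111 and 66.8 on the cytochalasin D arrays, 59.3 and 61.1 at 2 h of SEMA3E and 154 and 141 at 8 h, against 129 and 132 on the control arrays. The negative control spots of SEMA3E 8 h replicate 2 averaged 51.6, with 28.1 to 32.4 on the other 7 arrays. The median signal over all spots was 20.7 on that array and 3.65 to 7.99 on the others. Scaling to the median of all probes, used below as an alternative, divides by a median of this kind. The 8 arrays shared 1 slide, where replicates sat side by side, so an effect of the place of an array cannot be told apart from its group. Replicates were not always the closest arrays. Over the genes tested, control replicate 1 correlated with SEMA3E 2 h replicate 1 at 0.987, and control replicate 2 with cytochalasin D replicate 1 at 0.993. The 2 controls correlated with each other at 0.974. Replicate 1 of each treatment was also closest to an array of another group, and replicate 2 of each treatment to its own replicate. The 7 melanocyte markers, such as Dct and Tyrp1, were well above background on every array. Of 13 marker genes of fibroblasts, macrophages, endothelial cells and keratinocytes, which stood between -10.7 and -3.25, 6 were also well above background on all 8 arrays (Col1a1, Col1a2, Cd68, Csf1r, Pecam1 and Kdr). Pdgfra and Cdh5 were so on no array, and what part such cells had in the results was not tested.

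Rmrp had the widest gap between 2 h of SEMA3E and control among the members. Its level was -6.22 and -5.08 with cytochalasin D. In the SEMA3E course it was -5.61 and -5.74 in control, -1.51 and -2.47 at 2 h, and -4.14 and -4.42 at 8 h. The order of the groups was thus SEMA3E 2 h, SEMA3E 8 h, then cytochalasin D and control, and only cytochalasin D and control overlapped. The processed signal itself was 419 and 211 at 2 h, against 56.8 and 43.1 in control, so the gap was present before scaling, on arrays that were dimmer as a whole. The difference between SEMA3E 2 h and control was 3.68 ± 0.46 (SE), and it is the value that chose this RNA. Between SEMA3E 8 h and SEMA3E 2 h it was -2.29 ± 0.46, with both 8 h arrays below both 2 h arrays.

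**Figure D1:**
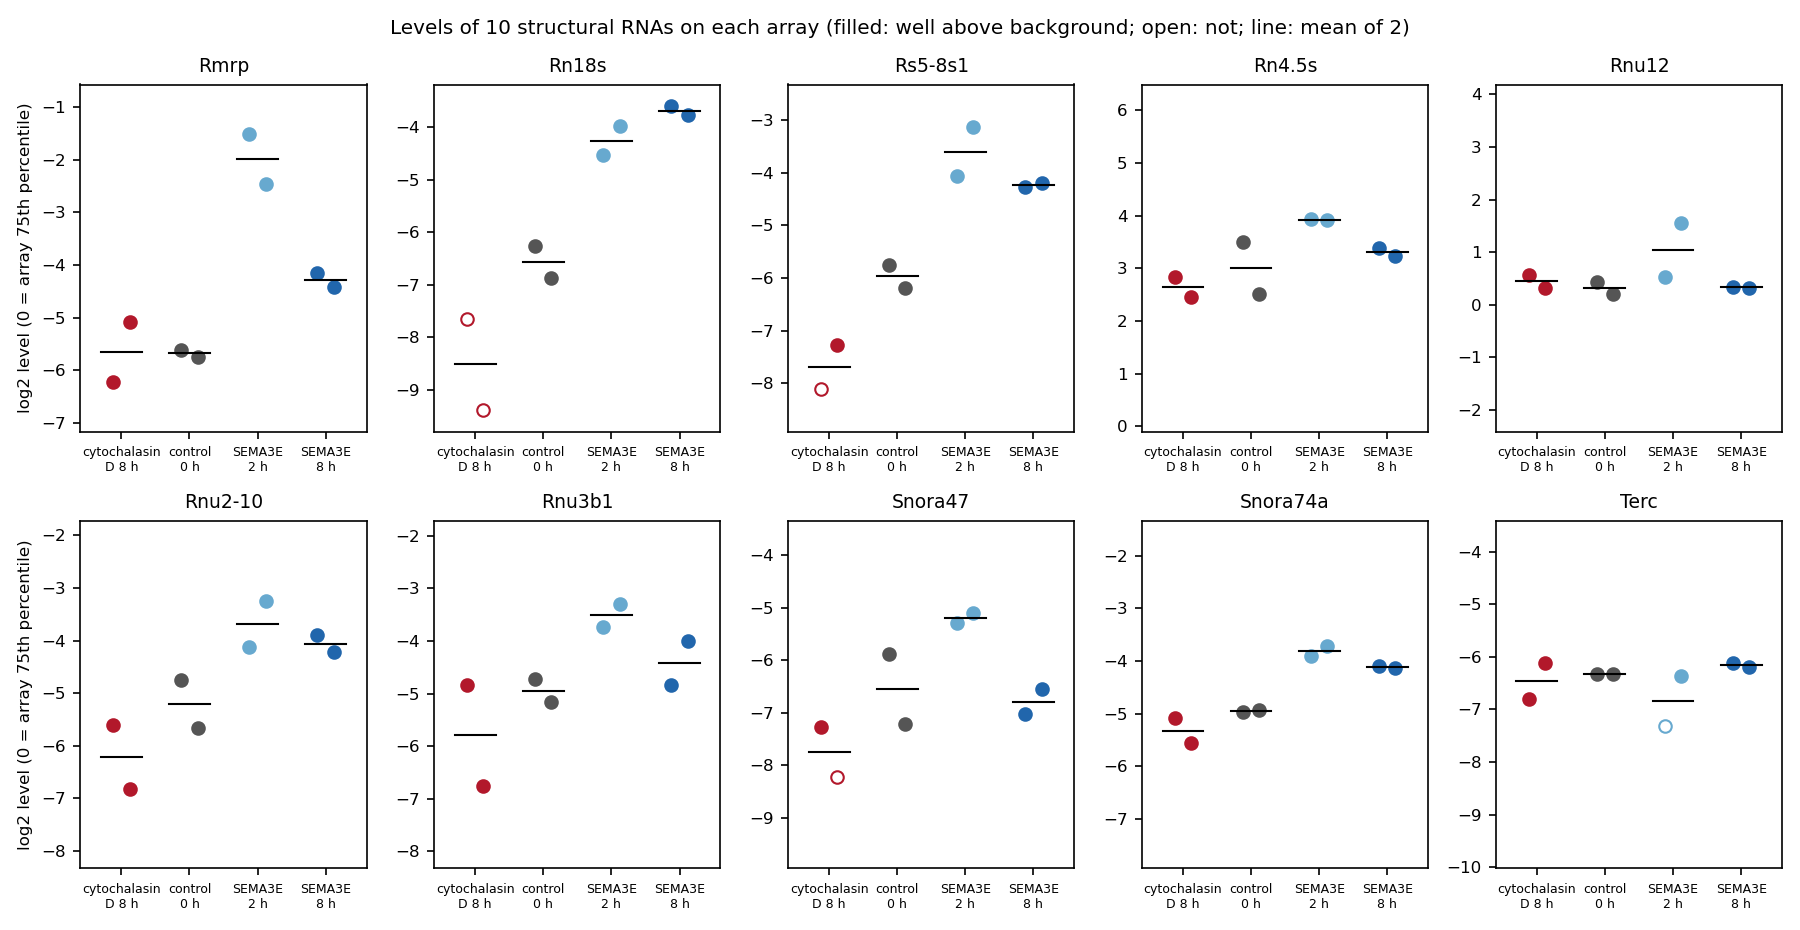
Level of each of the 10 RNAs on every array, as log2 relative to the array's 75th percentile, with the groups on the x axis, 2 points a group, a line at the group mean, and open points where the spot was not well above background. Every panel spans the same number of log2 units; Rmrp stands highest at SEMA3E 2 h, between -2.47 and -1.51, and Rn18s and Rs5-8s1 lowest with cytochalasin D.

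The ribosomal RNAs had a different course from Rmrp. Rn18s, the RNA of the small ribosomal subunit, was -7.64 and -9.38 with cytochalasin D, where neither spot was well above background. In the SEMA3E course it was -6.26 and -6.86 in control, -4.54 and -3.98 at 2 h, and -3.60 and -3.78 at 8 h. All 4 SEMA3E arrays were above both controls, and both cytochalasin D arrays were below them. Rs5-8s1, the small RNA that pairs with the RNA of the large subunit, was -8.11 and -7.27 with cytochalasin D, of which the first was not well above background. It was -5.74 and -6.19 in control, -4.06 and -3.14 after SEMA3E for 2 h, and -4.26 and -4.19 after 8 h. Again no group overlapped control, and between 8 h and 2 h of SEMA3E the differences were 0.57 ± 0.55 for Rn18s and -0.62 ± 0.41 for Rs5-8s1 (SE).

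Ribosomal RNA is the bulk of a cell's RNA, yet the signals of both probes were low. Rn18s gave a processed signal of 10.3 and 2.12 with cytochalasin D, 36.2 and 19.8 in control, 51.4 and 73.9 at 2 h and 224 and 164 at 8 h of SEMA3E. The second cytochalasin D value was a surrogate that the scanner software puts in place of very small signals. Probe signals depend on the probe as well as on the RNA, so none of these levels is set against that of another member.

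The nucleolar RNAs of the set had smaller gaps. Rnu3b1, a U3 RNA that guides early cuts of the ribosomal precursor, was -4.83 and -6.75 with cytochalasin D. It was -4.72 and -5.17 in control, -3.73 and -3.29 at 2 h, and -4.83 and -3.997 at 8 h, so only the 2 h arrays were clear of control. Snora74a, an H/ACA RNA of the kind that guides the change of uridine to pseudouridine, had the closest replicates. It was -5.08 and -5.56 with cytochalasin D, -4.97 and -4.92 in control, -3.90 and -3.71 at 2 h and -4.09 and -4.13 at 8 h, with no group overlapping control. Snora47, also an H/ACA RNA, was -7.27 and -8.21 with cytochalasin D, the second not well above background. It was -5.89 and -7.21 in control, -5.30 and -5.10 at 2 h, and -7.03 and -6.55 at 8 h. Both of its SEMA3E 8 h values lay between its control arrays.

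Of the spliceosomal RNAs, the U2 member was clear of control at both times of SEMA3E, and the U12 member only at 2 h. Rnu2-10, a U2 RNA that pairs with the intron branch site, was -5.59 and -6.81 with cytochalasin D. It was -4.75 and -5.66 in control, -4.13 and -3.24 at 2 h, and -3.90 and -4.22 at 8 h, with all 4 SEMA3E arrays above both controls. Rnu12, which does the same work in the minor spliceosome for a rare class of introns, was 0.57 and 0.32 with cytochalasin D, 0.44 and 0.21 in control, 0.53 and 1.56 at 2 h, and 0.35 and 0.32 at 8 h. Of its 8 values, 7 lay between 0.21 and 0.57, and only SEMA3E 2 h replicate 2 was higher.

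Rn4.5s, a small rodent RNA, was 2.84 and 2.46 with cytochalasin D, 3.51 and 2.52 in control, 3.93 on both arrays at 2 h, and 3.39 and 3.23 at 8 h. Both of its SEMA3E 8 h values lay between the controls. Terc was -6.80 and -6.13 with cytochalasin D, -6.32 and -6.33 in control, -7.32 and -6.37 at 2 h, and -6.12 and -6.20 at 8 h. On this scale Terc goes against the choice of members, since both SEMA3E 2 h arrays were below both controls. The first was not well above background, and the second was nearly a tie, at -6.368 against -6.332 on control replicate 2. With another background correction the difference between SEMA3E 2 h and control was 0.66.

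On this scale, 9 of the 10 members had both SEMA3E 2 h arrays above both controls, as did 24.5% of all genes, and Terc had both below, as did 15.2%. The differences ran from -0.52 for Terc to 3.68 for Rmrp, with a median of 1.39, where all genes had a median of 0.06. In the processed signal without scaling, Rmrp, Rn18s and Rs5-8s1 were above on both arrays, as were 0.719% of all genes, Terc was below, as were 83.3%, and the other 6 overlapped control. The 6 that overlapped differed by -0.38 to 0.42 log2 units in unscaled signal while all genes had a median of -1.04. The members were chosen on this contrast, so nothing is read from these counts. Between SEMA3E at 8 h and 2 h, 7 members had both 8 h arrays lower, as did 22.6% of all genes, and Rn18s and Terc had both higher, as did 27.9%. Without scaling the balance was the other way, with 2 members lower, as were 0.670% of all genes, 4 higher, as were 90.6%, and 4 overlapping.

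The comparison of cytochalasin D with SEMA3E, both at 8 h, is matched in time and leaves out the SEMA3E 2 h arrays. The spread behind its errors and p-values was estimated from all 8 arrays. Members were picked for their signal at SEMA3E 2 h, but with earlier results of these data known. Whether that choice was independent of the 8 h groups cannot be told. The ribosomal RNAs stood furthest apart: Rn18s averaged -8.51 ± 1.23 with cytochalasin D and -3.69 ± 0.12 with SEMA3E (SD, n = 2 each), a difference of -4.82 ± 0.55 (SE). Neither cytochalasin D spot was well above background. Each was therefore put at its own signal or at the lowest signal well above background on its array, whichever was higher. By this convention, which raised 1 of the 2 spots, Rn18s was 22.3-fold lower with cytochalasin D. That value is not a lower bound, since it leaves out the spread of replicates and the choice of processing. The 95% interval of the difference was -6.11 to -3.52, and with another background correction the difference was -1.41. Rs5-8s1 averaged -7.69 ± 0.59 with cytochalasin D and -4.23 ± 0.05 with SEMA3E, a difference of -3.46 ± 0.41, where 1 of the 2 cytochalasin D spots was well above background. Neither passed, with an adjusted p of 0.114 for each in the limma fit. In that comparison 1 gene was called (0.00553%) and no member, although 1986 genes and 5 members had an unadjusted p under 0.05.

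Leaving out SEMA3E 8 h replicate 1, which leaves the array with the high negative controls alone in its group, gave an adjusted p of 0.00916 for Rn18s and 0.0101 for Rs5-8s1 in limma, where 2534 genes were called. Over the 20 alternatives Rn18s differed by -5.69 to -1.41 and Rs5-8s1 by -4.01 to -1.14. The smallest sizes came after normexp, a background correction run here with an offset of 50. The offset adds 50 to each signal and so compresses low signals, and its own part was not tested.

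The other members were spread between these and no difference. Rnu2-10 differed by -2.14 ± 0.52 and Snora74a by -1.21 ± 0.27 (SE), each with an adjusted p of 0.413 in limma. Rmrp differed by -1.37 ± 0.46 with an adjusted p of 0.437, and Rnu3b1 by -1.38 ± 0.61 with 0.464. Snora47 differed by -0.96 ± 0.50 and Rn4.5s by -0.66 ± 0.36. The cytochalasin D arrays were both below both SEMA3E arrays for all of these. For Rnu3b1 this was nearly a tie, with cytochalasin D replicate 1 at -4.833 and SEMA3E replicate 1 at -4.8275. Terc, at -0.31 ± 0.38, and Rnu12, at 0.11 ± 0.36, overlapped, with 95% intervals of -1.20 to 0.59 for Terc and -0.74 to 0.96 for Rnu12.

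As a list, 8 of the 10, Rnu3b1 only just, had both cytochalasin D arrays below both SEMA3E 8 h arrays, as did 32.8% of all genes. A difference under -1 was found for 6, as for 9.36% of all genes. The median of the members was -1.29 and that of all genes -0.13. The members' median stayed below 0 under all 20 alternatives, between -1.83 and -0.31, though some of these, such as no filter, leave it unchanged. Dim probes as a whole leaned the same way: the 3759 genes whose mean level lay within the range of the 8 dim members, from -6.57 to -4.40, had a median of -0.30, where the 8 dim members had -1.37.

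**Figure D2:**
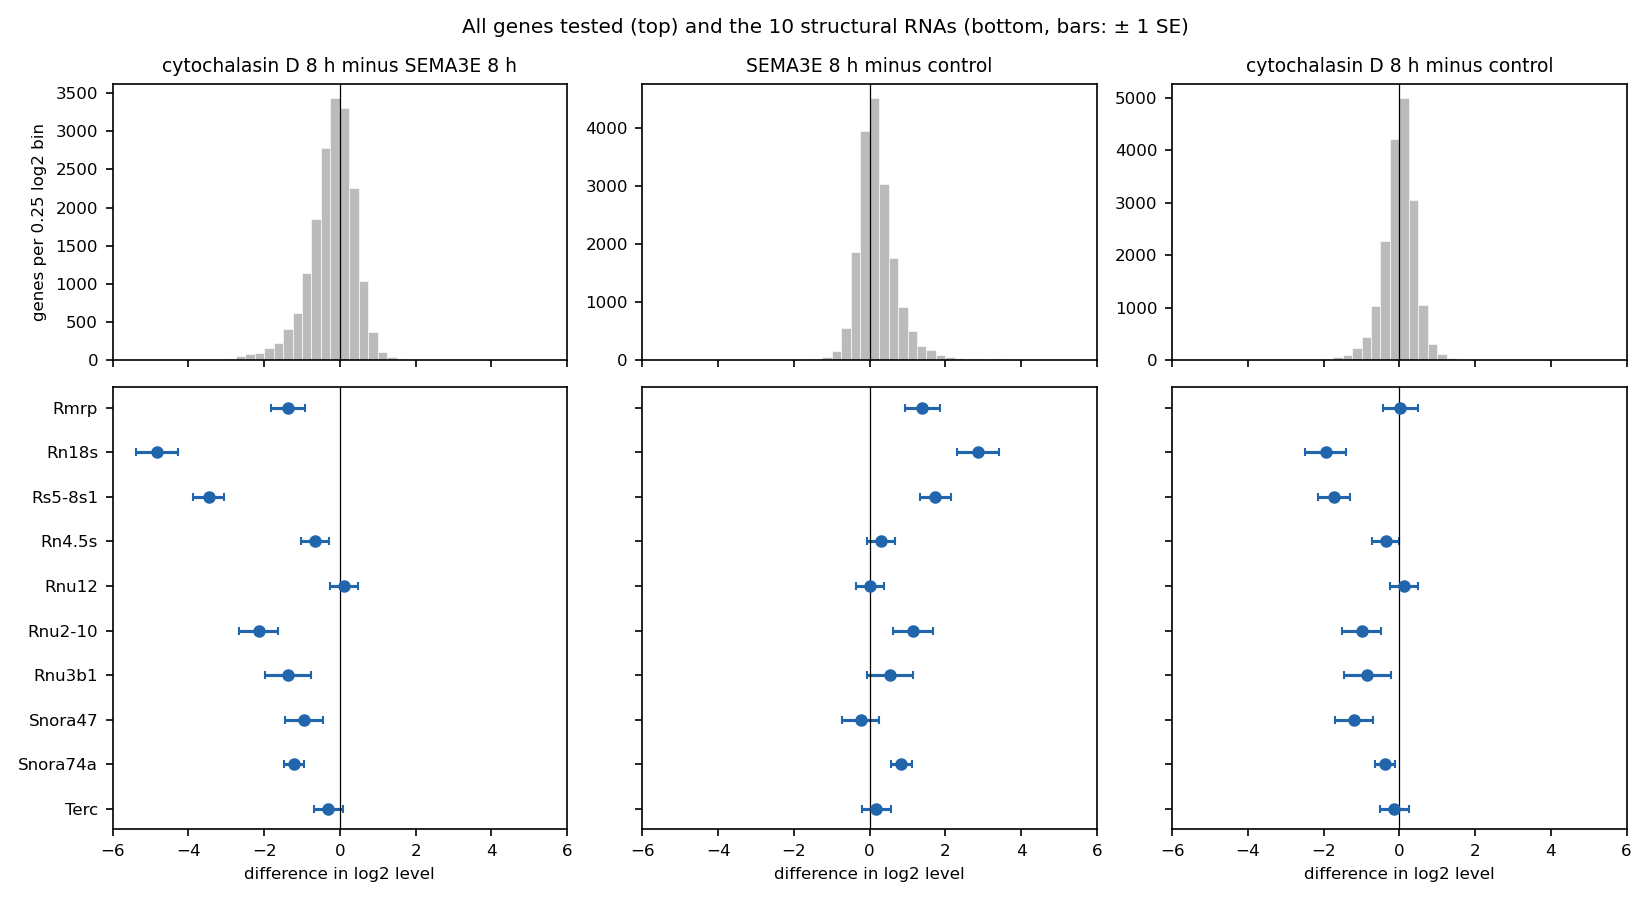
Differences in log2 level for 3 comparisons, with all 18073 genes as a histogram in bins of 0.25 above and the 10 RNAs below, points at the difference and bars at ± 1 SE. In the left column Rn18s at -4.82 and Rs5-8s1 at -3.46 lie far out in the lower tail of all genes, and Rnu12 at 0.11 and Terc at -0.31 lie near its middle.

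Against control, which shares its arrays with the contrast that chose the members, the treatments gave the following values. After 8 h of SEMA3E, 6 members had both arrays above both controls, as did 25.1% of all genes. Rn18s differed by 2.87 ± 0.55 (SE), with an adjusted p of 0.375 in limma. Rs5-8s1 differed by 1.74 ± 0.41, Rmrp by 1.39 ± 0.46, Rnu2-10 by 1.14 ± 0.52, Snora74a by 0.84 ± 0.27 and Terc by 0.17 ± 0.38. The other 4 overlapped control, with differences from -0.24 for Snora47 to 0.53 for Rnu3b1. Of all genes 1 was called (0.00553%) and of the members none, while 1109 genes and 4 members had an unadjusted p under 0.05 in limma. The members' median was 0.69, with 0.12 for all genes. The 3759 genes in the level range of the 8 dim members, given above, had a median of 0.31, where the 8 dim members had 0.99. With arrays scaled to the median of all probes, the members' median turned to -0.47 and that of all genes to -1.04.

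With cytochalasin D, 4 members had both arrays below both controls, as did 13.0% of all genes. Rs5-8s1 differed from control by -1.73 ± 0.41 (SE), Rn18s by -1.95 ± 0.55, Snora47 by -1.20 ± 0.50 and Snora74a by -0.37 ± 0.27. By the same convention Rn18s was 3.06-fold lower than in control. That value rests on dim spots and is not a lower bound, since the difference was 0.10 after normexp. Rmrp differed by 0.02 ± 0.46, with a 95% interval of -1.05 to 1.096. The limma fit called no gene (0%) and gave an adjusted p of 1 to each member, with 441 genes and 3 members at an unadjusted p under 0.05. The members' median was -0.61, with 0.03 for all genes, and it was 0.11 after normexp, where 5 members that were below 0, Rn18s among them, came out above 0.

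How firmly these differences stand against the choice of processing varied by member. Across all 20 alternatives, Rmrp, Rn18s, Rs5-8s1, Rnu2-10, Rnu3b1 and Snora74a stayed lower with cytochalasin D than with SEMA3E at 8 h. Some alternatives cannot move these differences, such as no filter, or leaving out an array of control or of SEMA3E 2 h. Rnu12, Terc, Snora47 and Rn4.5s took both signs.

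**Figure D3:**
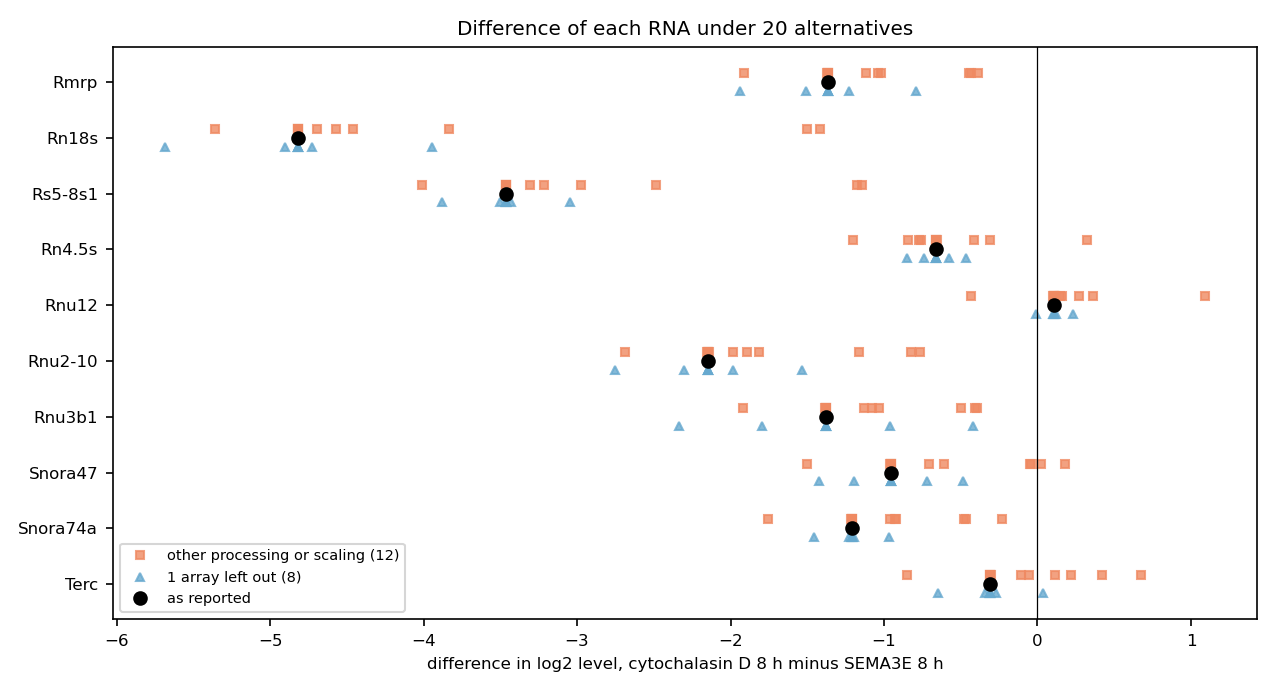
Difference between cytochalasin D at 8 h and SEMA3E at 8 h for each RNA in log2 units, as reported (black circles), under 12 other ways of processing (squares) and with 1 of the 8 arrays left out (triangles). The symbols of Rn18s run from -5.69 to -1.41 and stay below 0, whereas those of Rnu12 and Terc lie on both sides of 0.

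Few other structural RNAs had a probe to compare. Gene names of this kind matched 12 entries, of which 2 were no members. Rnu1b6, a U1 RNA that recognises the start of introns, was -5.39 and -5.65 with cytochalasin D. It was -4.69 and -6.03 in control, -3.57 and -5.74 at 2 h, the second not well above background, and -5.41 and -4.89 at 8 h. Its difference between cytochalasin D and SEMA3E at 8 h was -0.37 ± 0.72 (SE), with an adjusted p of 0.862 in limma. Snord116 was not well above background on any array.

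None of the genes for proteins that work with these RNAs passed in any of the 3 tested comparisons. Their differences between cytochalasin D and SEMA3E at 8 h follow, where all genes had a median of -0.13. The medians of these lists depend on scaling: without it all genes stood at -0.68, and with arrays scaled to the all-probe median at 0.85. The lists of partner proteins and of genes that make and trim the RNAs moved along, to between -0.65 and -0.22 without scaling and to between 0.88 and 1.31 with the all-probe median, so the signs below hold for the scale used here.

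Of the 10 measured proteins of RNase MRP and RNase P, 5 were below 0, as were 60.3% of all genes. The median difference of the 10 was -0.01. Pop1, the scaffold of both enzymes, differed by 0.58 ± 0.62 (SE) and Pop7 by 0.47 ± 0.31, and at the other end Rpp21 by -0.77 ± 0.44 and Pop5 by -0.55 ± 0.37. The 11 proteins of H/ACA particles and telomerase had a median of -0.02. Nop10, a core protein of these particles, differed by -1.65 ± 0.48, with an adjusted p of 0.413 in limma, and the assembly factor Shq1 by -0.64 ± 0.56, whereas Tep1 stood at 0.55 ± 0.38 and Zcchc8 at 0.31 ± 0.50. The 29 proteins of C/D particles and of the U3 processing complex had a median of 0.01. Nolc1, a nucleolar phosphoprotein, differed by 0.83 ± 0.29 and Wdr46 by 0.77 ± 0.29, while Tbl3 and Utp14a, proteins of the U3 complex, stood at -1.25 ± 0.45 and -1.04 ± 0.40.

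The 16 proteins of the U2 particle had a median difference of -0.01, and its SF3b members Sf3b5 and Sf3b3 stood at -0.64 ± 0.36 and 0.37 ± 0.38 (SE), with Phf5a at -0.47 ± 0.31 and Sf3b1 at 0.26 ± 0.45. The 7 Sm core proteins, which bind the site shown in capitals above, had a median of -0.10. Among them Snrpe stood at -0.99 ± 0.39, Snrpd3 at -0.26 ± 0.25, Snrpd2 at 0.05 ± 0.26 and Snrpb at 0.24 ± 0.35. The 9 proteins of the minor spliceosome had a median of 0.33, with Pdcd7 at 0.80 ± 0.38, Rnpc3 at 0.59 ± 0.28, Snrnp48 at -0.93 ± 0.48 and Zmat5 at -0.65 ± 0.33. The smallest adjusted p among these 12 genes was 0.449 in limma, for Snrpe.

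The 16 genes of RNA polymerase I and its factors had a median difference of 0.10. Rrn3, which brings that polymerase to ribosomal DNA, stood at 0.80 ± 0.42 (SE) and Taf1b at 0.75 ± 0.32, and the subunits shared among polymerases, Polr2h and Polr2l, at -0.87 ± 0.39 and -0.73 ± 0.41. The 24 of RNA polymerase III and its factors had a median of 0.09. Polr3e, a subunit, stood at 1.09 ± 0.32 and Gtf3c2 at 0.90 ± 0.81, against -0.60 ± 0.26 for Maf1, the repressor of this polymerase, and -0.60 ± 0.37 for Brf2. The 32 genes for transcription, end processing and assembly of small nuclear RNAs had a median of 0.08. Snapc1, which helps to start their transcription, stood at 0.70 ± 0.28 and Ncbp2 at 0.64 ± 0.56, and the export adaptor Phax at -0.65 ± 0.35 and Ints5 at -0.56 ± 0.87.

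The 17 genes of the RNA exosome and of trimming at the 3′ end had a median of 0.19, with Zcchc7 at 0.59 ± 0.29 (SE), Exosc8 at 0.43 ± 0.25, Exosc2 at -0.23 ± 0.29 and Pnpt1 at -0.18 ± 0.26. Of the 13 measured hosts of small nucleolar RNAs, 10 were below 0, as were 60.3% of all genes. The hosts had a median of -0.45, which turned to 0.53 where arrays were scaled to the all-probe median. Among them Snhg6 stood at -1.49 ± 0.67, Snhg17 at -1.15 ± 0.47, Matr3 at 0.48 ± 0.33 and Eif4a1 at 0.39 ± 0.25.

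Of the 12 lists, the histone cluster genes had the median nearest to that of the members, and 34 of the 51 could be tested. Of these, 31 were lower with cytochalasin D than with SEMA3E at 8 h, with a median of -1.16 that ran from -1.70 to -0.17 over the 20 alternatives, whereas 60.3% of all genes were lower. No histone gene passed in limma, where H4c11 differed by -2.64 ± 0.72 (SE) with an adjusted p of 0.413 and H3c4 by 0.18 ± 0.24 with 0.789. H2ac4 stood at -2.57 ± 1.11 and H2bc21 at 0.02 ± 0.25. Between SEMA3E at 2 h and control, 29 of the 34 were above 0 with a median of 0.65 (-0.45 without scaling), where 54.9% of all genes were above 0. What part a common property of these transcripts had in either difference was not tested.

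**Figure D4:**
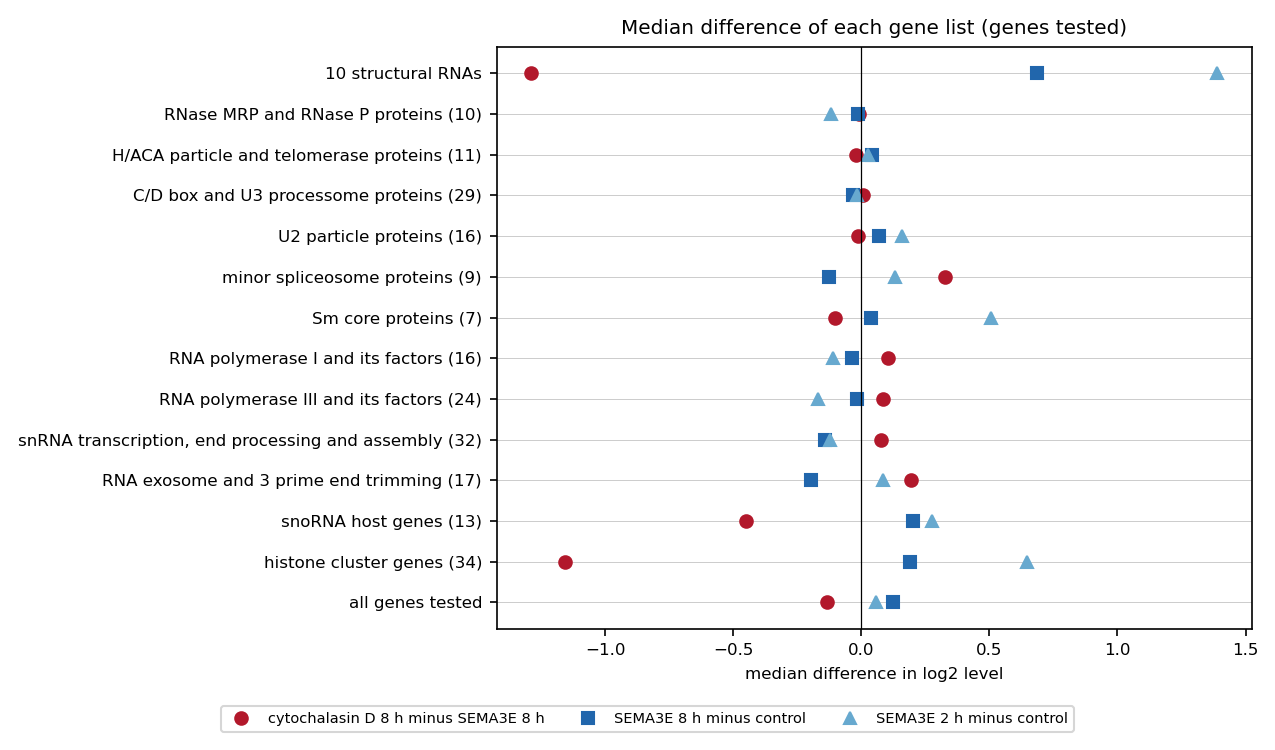
Median difference in log2 level of the 10 RNAs, of each of 12 gene lists with the number of genes tested in brackets, and of all genes, for 3 comparisons. For cytochalasin D minus SEMA3E at 8 h (circles) the RNAs at -1.29 and the histone cluster genes at -1.16 lie furthest to the left, and the protein partners of RNase MRP lie at -0.01 on this scale (-0.55 without scaling, 0.97 with the all-probe median).

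Across the 8 arrays the level of Rmrp correlated with those of the other members at r between -0.45 for Terc and 0.81 for Snora74a, as a description over arrays that share their groups. Among 11497 genes, those closest to Rmrp were Ccdc103 at r = 0.97, Lgmn at 0.97, Rprd1b at 0.97, Clk4 at 0.96 and Primpol at 0.96. Ccdc103, which encodes a protein of cilia, was -3.67 and -3.72 at SEMA3E 2 h, against -4.62 and -4.83 in control. Clk4, a kinase of splicing factors, was 1.21 and 1.08 at SEMA3E 2 h, against 0.53 and 0.42 in control. Since Rmrp was chosen for its level at SEMA3E 2 h, nothing is read from where genes picked for likeness to it stand highest.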

How the data were processed

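Total RNA was amplified to Cy3-labelled cRNA and read on 1-colour oligonucleotide arrays, per the labels. Per the file headers, the authors extracted the scanned images with Agilent Feature Extraction 11.5.1.1, whose processed signal is a background-subtracted intensity without scaling between arrays. The authors also deposited a table of intensity per gene name, which gave each member within 0.00565 log2 units of the scanner value before scaling and was used as an alternative. The depth of an array is not a count, so precision is limited by the number of arrays.

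Control and outlier spots were left out, spots of a probe were averaged as log2, and levels were scaled as the report states. A gene took its brightest probe, after a filter for probes well above background on both arrays of at least 1 group. Group means were fitted with limma 3.58.1 in R 4.3.3 (two-sided, Benjamini-Hochberg over 18073 genes), and the fit was tested on simulated data. Gene names were updated through RefSeq identifiers, matched by 27673 of 55698 probes. Figures were drawn with matplotlib 3.10.9. The text names all members, the 5 genes closest to Rmrp, and from each list the 2 genes with the highest and the 2 with the lowest difference in cytochalasin D minus SEMA3E at 8 h. Members and lists were chosen with earlier results of these data known. No 2 arrays had identical signals. Probe sequences of Rn18s, Rs5-8s1 and Snora74a are not shown here. Alternatives covered background, scaling, filter, fit, the deposited table, a replicate block and each array left out. The unscaled signal and the removal of a trend with probe GC content were added after seeing the data. Before removal, deviations of gene levels from their mean over arrays correlated with probe GC content at r = -0.28 and -0.06 in control. The r was -0.05 and 0.09 at 2 h of SEMA3E, 0.17 and 0.31 at 8 h, and -0.01 and -0.17 with cytochalasin D. Its sign thus differed between the 2 groups compared at 8 h.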

Additional observations from a re-analysis of the deposited data

Results flagged for a closer look

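On the scale used here, Terc had effects of opposite direction at the times of SEMA3E treatment. Both 2 h arrays, at -7.32 and -6.37, were below both controls, at -6.32 and -6.33, and both 8 h arrays, at -6.12 and -6.20, were above them. The effect at 8 h minus that at 2 h was 0.68 log2 units. This difference was not tested, since the 2 h arrays had chosen the members, and the control arrays are shared by both effects. After normexp the effect at 2 h was 0.66 and that at 8 h 0.11, both above control, and the effect at 8 h was below 0 under 5 of the 12 other ways of processing. Terc at 2 h was well above background on 1 of 2 arrays, and several gaps to control are under 0.25 log2 units.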

How the results depend on the processing

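Each result was recomputed under 20 alternatives, 12 of them other processing and 8 with 1 array left out. Of the differences between cytochalasin D and SEMA3E at 8 h, Rn18s passed in limma when arrays were scaled to the all-probe median (adjusted p 0.00104), and Rn18s and Rs5-8s1 passed without scaling (0.029 and 0.0171) and without SEMA3E 8 h replicate 1. Over the 20 alternatives the adjusted p ran from 0.00104 to 0.626 for Rn18s and from 0.0101 to 0.686 for Rs5-8s1. The causes were not tested.

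For cytochalasin D minus SEMA3E at 8 h, the members' median was -0.46 after normexp, -0.49 after normexp with quantile normalization, -0.98 after quantile normalization, -0.31 with the median of all probes, -1.83 without scaling and -0.97 with the probe GC trend removed. Members called were 1 with the median of all probes and 2 without scaling. For SEMA3E at 8 h minus control the members' median was 0.29 after normexp with quantile normalization, 0.45 after quantile normalization, -0.47 with the median of all probes, 0.47 with the 75th percentile over all probes and 0.31 with the GC trend removed. For cytochalasin D minus control it was 0.11 after normexp and -1.18 without scaling. For SEMA3E at 2 h minus control it was 0.87 after normexp with quantile normalization, 0.80 with the median of all probes and 0.29 without scaling. For SEMA3E at 8 h minus 2 h it was -1.19 with the median of all probes and 0.45 without scaling. The median of all genes was -1.04 without scaling at 2 h and 0.85 with the median of all probes for cytochalasin D minus SEMA3E at 8 h.

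Genes called in cytochalasin D minus SEMA3E at 8 h were 0 with quantile normalization (with or without normexp), the 75th percentile over all probes, no filter, outlier spots kept, the GC trend removed or the replicate block, 7 with the median of all probes, 11 in the deposited table and 18 without scaling. In SEMA3E at 8 h minus control they were 0 after normexp, both quantile settings, the median of all probes, no filter or an intensity trend, 13 in the deposited table, 7 with the replicate block, 10 without scaling and 2 with the GC trend removed. In cytochalasin D minus control they were 2 with the median of all probes and 9 in the deposited table. Deviations of same-numbered arrays correlated at -0.15 to 0.14 in 6 pairs of groups. With 2 arrays a group, this cannot tell whether replicates of the same number were handled together. The replicate block called 0 members.

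Direction turned for single members in the tested comparisons as follows. For cytochalasin D minus control, after normexp Rn18s was 0.10, Rnu3b1 0.0095, Snora47 0.15, Snora74a 0.13 and Terc 0.32. Rmrp was -0.16 and Rnu12 -0.063 with the median of all probes, Rmrp was -0.55 and Rnu12 -0.46 without scaling, and Rmrp was -0.039 with the GC trend removed. For SEMA3E at 8 h minus control, Rnu12 was -0.025 after normexp, -0.024 with quantile normalization added, -7e-04 with quantile normalization, -0.21 with the 75th percentile over all probes, -0.022 without scaling and -0.19 with the GC trend removed. Terc was -0.15 after normexp with quantile normalization, -0.51 after quantile normalization, -0.049 with the 75th percentile over all probes and -0.073 with the GC trend removed, and Rn4.5s was -0.11 with the GC trend removed. With the median of all probes Rn4.5s was -0.87, Rnu12 -1.15, Rnu2-10 -0.017, Rnu3b1 -0.63, Snora74a -0.32 and Terc -0.99. For cytochalasin D minus SEMA3E at 8 h, Snora47 was 0.18 and Terc 0.22 after normexp, Terc 0.11 with quantile normalization added and 0.42 after quantile normalization, Rn4.5s 0.32, Snora47 0.025 and Terc 0.68 with the median of all probes, and Rnu12 -0.43 without scaling. In the comparisons that chose the members, for SEMA3E at 2 h minus control Terc was 0.66 after normexp, and Rn4.5s -0.18 and Rnu12 -0.38 without scaling. For SEMA3E at 8 h minus 2 h, Terc was -0.56 after normexp, Rn18s -0.0015 with the median of all probes, and without scaling Rs5-8s1 was 0.44, Rn4.5s 0.45, Rnu12 0.36, Rnu2-10 0.69, Rnu3b1 0.17 and Snora74a 0.77. Rnu2-10 was 0.070 there without SEMA3E 2 h replicate 2.

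With 1 array left out, the members' median ran from -1.44 to -0.81 for cytochalasin D minus SEMA3E at 8 h, from 0.50 to 0.88 for SEMA3E at 8 h minus control, from -0.96 to -0.43 for cytochalasin D minus control, from 1.12 to 1.81 for SEMA3E at 2 h minus control and from -0.95 to -0.20 for SEMA3E at 8 h minus 2 h. Single members that took both signs ran, for SEMA3E at 8 h minus control, from -0.20 to 0.79 (Rn4.5s), from -0.11 to 0.12 (Rnu12) and from -0.90 to 0.42 (Snora47). For cytochalasin D minus control they ran from -0.55 to 0.60 (Rmrp), from -0.86 to 0.13 (Rn4.5s), from -0.0052 to 0.24 (Rnu12), from -1.80 to 0.11 (Rnu3b1) and from -0.48 to 0.20 (Terc), and for cytochalasin D minus SEMA3E at 8 h from -0.011 to 0.23 (Rnu12) and from -0.65 to 0.033 (Terc). Genes called ran from 0 to 2534, from 0 to 2834 and from 0 to 1 in the tested comparisons, in the order above, of which 2534 and 2834 came without SEMA3E 8 h replicate 1 and 1 without control replicate 1. A lone array is then assumed to vary like the other groups. Members called ran from 0 to 2 in cytochalasin D minus SEMA3E at 8 h.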
